A study of Mus musculus with 16 samples.

Results

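This account describes what tagged polysomes of prelimbic neurons that project to the ventral tegmental area (VTA) gained and lost relative to the surrounding tissue. Its members are all genes of the PL-VTA comparison with a mean normalized count of at least 50, a rule that uses the overall level of a gene and not its fold change. Of 39017 gene rows, 12314 met it (31.6%), which is 54.5% of the 22606 genes with any read in this comparison. They held 99.5% of the mean counts, and 68 of them had no gene symbol. Just above the limit, the genes Mbd6, Gipc2, Zfp618, Pou3f4 and Dmp1 had means of at most 50.1 and log2 fold changes from -0.69 to 0.33 in the authors' deposited table. Just below it, Lcp2, Hsf2, Ntn5, 4931415C17Rik and Ap4e1 had means of at least 49.8 and log2 fold changes from -0.86 to 0.12 in the authors' deposited table.

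All groups were C57BL/6J mice in which the prelimbic cortex (PL) received the virus AAV-IV-GFPL10. It makes green fluorescent protein fused to the ribosomal protein L10a, the product of Rpl10a, only where Cre recombinase is present. CAV-Cre, a virus taken up by axon endings, was placed in the VTA, the nucleus accumbens (NAc) or the basolateral amygdala (BLA). Beads with an antibody to the fluorescent protein then pulled down the tagged polysomes, and their RNA (IP) was set against the total RNA of the dissected PL (Input). PL-VTA had 2 IP and 2 Input libraries, and PL-NAc and PL-BLA, used here only to show where PL-VTA differed, had 3 and 3 each. The tag marks any PL cell that took up CAV-Cre in the target, whatever its other targets. The labels used here give neither age nor sex, and they do not say whether libraries came from separate animals or pools. The p-values therefore measure only the spread between libraries, which may be technical.

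PL neurons that reach the midbrain are, as background, pyramidal tract neurons of layer 5, also called extratelencephalic neurons because their axons leave the telencephalon. Their fate is set by the transcription factors Fezf2 and Bcl11b (Ctip2), while intratelencephalic neurons of the same and of upper layers, which stay within cortex, striatum and amygdala, use other factors such as Cux2. Affinity purification of tagged ribosomes recovers mRNA that is being translated in the tagged cells, so RNA held in the nucleus or inside mitochondria, and RNA of untagged cells, should be poor in it.

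The deposited values for each gene were a mean normalized count, a log2 fold change, its standard error (SE), a Wald score and p-values, so no value for a single library can be given. The mean counts summed to 16520414, which stands for the average of the 4 libraries. The direction was read as IP over Input because glial and mitochondrial transcripts were negative, and the fall of these 2 sets is therefore fixed by that reading. The fold changes had been shrunken toward 0, which understates changes of genes with few reads or wide spread. The median SE over the genes described was 0.219 in PL-VTA, against 0.124 in PL-NAc and 0.129 in PL-BLA, and the smallest log2 change that passed the test in PL-VTA was 0.32 in size. A gene is called here higher or lower when its adjusted p, from the submitters' DESeq2 model, was under 0.05.

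Among genes called, the PL-VTA IP gained a larger number by small amounts and lost a smaller number by large amounts. Of the 12314 genes, 1684 (13.7%) were higher and 1455 (11.8%) were lower in the authors' deposited table. Changes of at least 2-fold were mostly losses, with 208 genes higher (1.69%) and 841 lower (6.83%). At a mean of at least 200 these were 154 and 396. The genes called higher held 35.1% of the mean counts, and those called lower 8.3%. Among nuclear protein-coding genes the median mean count was 1765.6 for those called higher, 327.5 for lower and 479.5 for not called. Small changes pass the test only where the SE is small. A gene group with a median SE below the 0.219 of all genes can therefore have more genes called for changes of the same size. The median log2 fold change of all genes was 0.06, and after it was subtracted 1289 were higher and 1629 lower, so the balance of the counts depends on that centring. When each score was read against a t distribution with 2 degrees of freedom in place of the normal, DESeq2's scores left no gene at an adjusted p under 0.05. On that reading 492 genes were higher and 609 lower at an unadjusted p under 0.05, and the smallest adjusted p was 0.581. With 2 degrees of freedom and adjustment over 15440 genes, hardly any score could pass. That reading therefore cannot tell which single calls are sound.

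**Figure D1:**
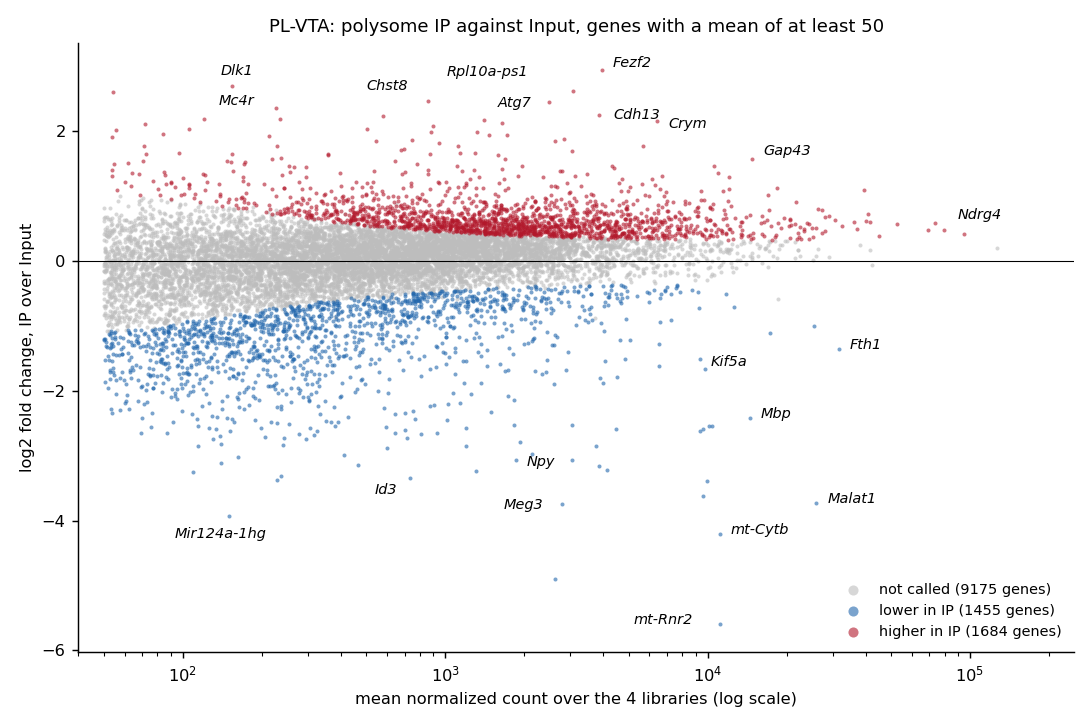
Each point is 1 of 12314 genes, with its mean normalized count over the 4 PL-VTA libraries on a log axis and its log2 fold change of IP over Input on the other axis. The 1684 genes called higher (red) lie mostly between 0.32 and 1, while many of the 1455 called lower (blue) lie below -1, down to mt-Rnr2 at -5.60.

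Layer 5 extratelencephalic identity genes led the gains. Of 15 markers listed, 14 were in the table and 11 passed the level filter, and 11 of those 11 were higher, with a median log2 fold change of 1.39, against 13.7% of all genes higher and a median of 0.06. The filter keeps a marker more readily where it is high, so this count describes the markers that could be measured. The list was also chosen with earlier results of these data known, so its counts are descriptive only. Fezf2 (ENSMUSG00000021743, chr14:12342094-12348189, minus strand), the transcription factor that directs neurons to this fate, was 7.67-fold higher in the authors' deposited table (log2 2.94, SE 0.15, adjusted p = 4.45e-77 by DESeq2). It had the highest fold change of all 12314 genes. Crym (chr7:120186380-120202111), which encodes a thyroid hormone binding protein, was 4.46-fold higher in the authors' deposited table (log2 2.16, SE 0.14). Pou3f1 (chr4:124656807-124660655), a POU factor of deep-layer projection neurons, was 3.70-fold higher in the authors' deposited table (log2 1.89, SE 0.14). Bcl11b (ENSMUSG00000048251, chr12:107910403-108003602, minus strand), the zinc finger factor that acts downstream of Fezf2 in axon growth, was 2.23-fold higher in the authors' deposited table (log2 1.16, SE 0.14). The other 7 were Ldb2 (1.34), Sulf2 (1.39), Crim1 (1.20), Npr3 (1.57), Fam84b (1.47), Bcl6 (0.81) and Stac (1.37), as log2 fold changes in the authors' deposited table. Among all 52 measured cortical transcription factors, in contrast, 12 were higher and 14 lower. Tox, an HMG-box factor, was at 1.78 (SE 0.18), while Id3, an inhibitor of helix-loop-helix factors, was at -3.34 (SE 0.21), per the authors' deposited table.

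The 250 bases before the RefSeq transcription start of the 2 regulators are shown because their transcripts rose together. They come from RefSeq (GRCm38.p6), on the gene's strand. The GENCODE gene spans given above start further upstream, so the Fezf2 window lies wholly inside its span and the Bcl11b window in part. In the sequences, capitals mark the GC box GGGCGG on either strand. The TATA box TATAAA and the CCAAT box CCAAT were also searched on both strands.
Fezf2, chr14:12345866-12346115: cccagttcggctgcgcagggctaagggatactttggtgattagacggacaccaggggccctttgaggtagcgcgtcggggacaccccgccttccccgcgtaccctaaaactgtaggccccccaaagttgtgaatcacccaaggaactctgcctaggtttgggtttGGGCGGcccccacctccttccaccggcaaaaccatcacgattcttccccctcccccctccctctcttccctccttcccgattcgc
Bcl11b, chr12:108003415-108003664: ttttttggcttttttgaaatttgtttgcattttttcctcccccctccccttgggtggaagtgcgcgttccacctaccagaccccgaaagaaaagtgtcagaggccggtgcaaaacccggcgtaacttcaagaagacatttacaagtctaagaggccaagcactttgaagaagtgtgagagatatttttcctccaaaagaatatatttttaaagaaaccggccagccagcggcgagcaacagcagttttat
The Fezf2 window had 61.2% G and C with 14 CpG and 1 GC box, and the Bcl11b window had 44.8% with 9 CpG and none of the 3 motifs. The GC box was found in 32.7% of all 32851 promoter windows of this length, in 57.7% of the 11952 windows of genes described here and in 55.5% of the 1629 windows of genes called higher. For the TATA box the shares were 12.4%, 6.09% and 6.08%, and for the CCAAT box 33.8%, 35.0% and 35.4%. The genes called higher thus had motif shares within 3 percentage points of those of all measured genes.

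**Figure D2:**
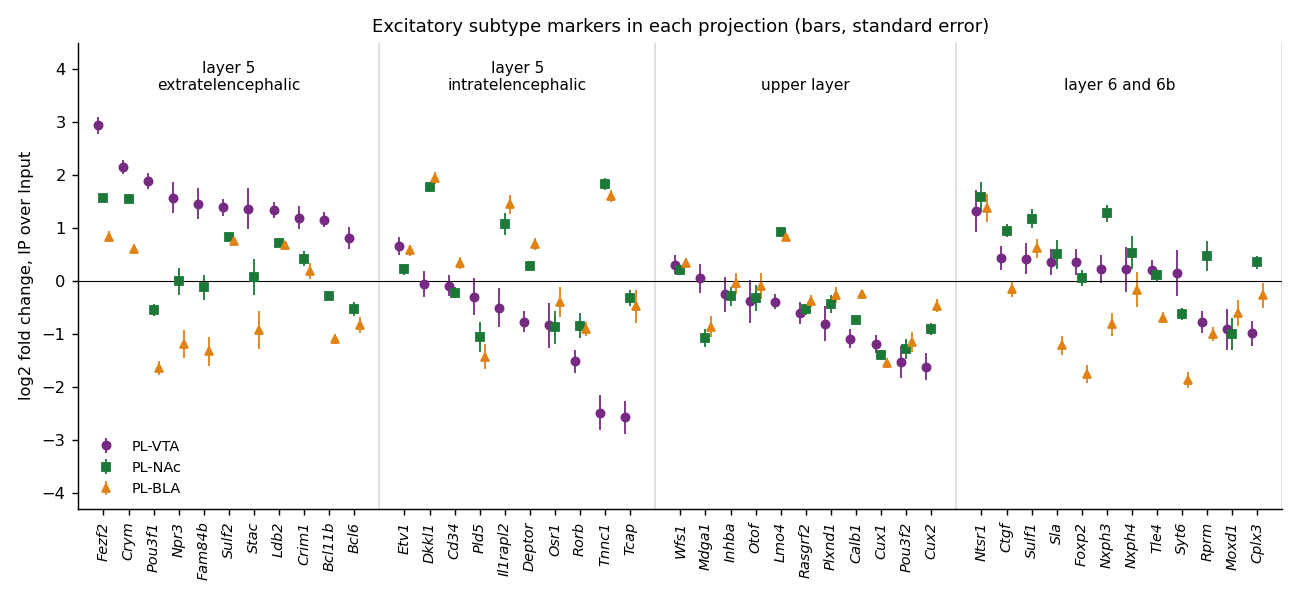
Log2 fold changes of IP over Input are plotted for measured excitatory subtype markers in PL-VTA (circles), PL-NAc (squares) and PL-BLA (triangles), with bars for the standard error. The 11 extratelencephalic markers are all above 0 in PL-VTA, from 0.81 to 2.94, while Tnnc1 and Tcap fall to -2.48 and -2.57.

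Peptide signals and their receptors moved in both directions. Of 26 measured neuropeptide and secretory granule genes, 5 were higher (19.2%) and 9 lower (34.6%), and of 30 measured peptide receptor genes 9 were higher and 8 lower. Adcyap1, which encodes the peptide PACAP, was 4.24-fold higher in the authors' deposited table (log2 2.08, SE 0.21, adjusted p = 1.25e-20 by DESeq2). Grp, gastrin-releasing peptide, was 4.57-fold higher in the authors' deposited table (log2 2.19, SE 0.29). Pdyn, prodynorphin, was at 1.42 in the authors' deposited table with a wide SE of 0.39. The peptides that fell included those of cortical interneurons, Npy at -3.07 (SE 0.17), Vip at -2.56 (SE 0.21) and Sst at -1.69 (SE 0.19), per the authors' deposited table. Among receptors, the melanocortin receptor Mc4r was 5.12-fold higher in the authors' deposited table (log2 2.36, SE 0.29, adjusted p = 3.32e-14 by DESeq2). Ramp3, a partner protein of calcitonin-family receptors, was at 1.54 (SE 0.20) and the cholecystokinin receptor Cckbr at 1.20 (SE 0.17), per the authors' deposited table. The natriuretic peptide clearance receptor Npr3, also an extratelencephalic marker, was at 1.57 (SE 0.29), per the authors' deposited table. Receptors that fell included Ntsr2, an astrocyte gene, at -1.89 (SE 0.17), the PACAP receptor Adcyap1r1 at -0.88 (SE 0.21), Vipr2 at -1.72 (SE 0.42) and the oxytocin receptor Oxtr at -1.21 (SE 0.37), per the authors' deposited table. The abundant processing enzyme Cpe was at 0.07 (SE 0.12) and did not pass the test in the authors' deposited table. Monoamine and acetylcholine receptors gave 1 higher and 6 lower of 28 measured, with the nicotinic subunit Chrna4 at 0.66 (SE 0.21), and the serotonin receptor Htr2a at -0.99 (SE 0.30), per the authors' deposited table.

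Among potassium channel genes more fell than rose. Of 65 measured potassium channel genes, 6 were higher (9.2%) and 15 lower (23.1%), against 13.7% and 11.8% of all genes. Kcng1 and Kcng2 encode modifier subunits that open no channel alone and change the gating of Kv2 channels. Kcng1 was 4.35-fold higher (log2 2.12, SE 0.16) and Kcng2 3.63-fold higher (log2 1.86, SE 0.21), per the authors' deposited table. Another modifier, Kcng4, was at -1.58 (SE 0.35), per the authors' deposited table, and this family was grouped after its values were seen. Kcnn2, a calcium-activated SK channel, was at 1.22 (SE 0.19), and the inward rectifier Kcnj12 at 0.99 (SE 0.20), per the authors' deposited table. Losses included the glial rectifier Kcnj16 at -1.97 (SE 0.38) and Kcnc2, a Kv3 channel of fast-spiking interneurons, at -1.81 (SE 0.21), per the authors' deposited table. The T-type calcium channel Cacna1h was 2.57-fold higher in the authors' deposited table (log2 1.36, SE 0.24). Calcium channel genes gave 3 higher (14.3%) and 2 lower (9.52%) of 21 measured, near the shares of all genes. Among 13 measured sodium channel genes only the beta subunit Scn2b passed the test (7.69%), at 0.66 (SE 0.16), per the authors' deposited table. Calcium stores, pumps and buffers split into 10 higher (28.6%) and 9 lower (25.7%) of 35 measured. S100a10, known from corticostriatal and other deep-layer neurons, was at 1.27 (SE 0.18), Ncs1, a calcium sensor, at 0.69 (SE 0.13) and the calmodulin-binding Pcp4 at 0.65 (SE 0.14), per the authors' deposited table. Calb1, calbindin, was at -1.08 (SE 0.18) and the potassium-dependent exchanger Slc24a2 at -1.17 (SE 0.17), per the authors' deposited table.

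Genes of axon filaments, the cytoskeleton and motors formed a second group of gains, with list medians above 0 in all 3 projections. Of 35 measured axon filament and cytoskeleton genes, 18 were higher (51.4%) and 5 lower (14.3%). Their median log2 fold change was 0.38, against 0.35 in PL-NAc and 0.39 in PL-BLA. Gap43, the growth cone phosphoprotein that adult projection neurons keep, was 2.98-fold higher in the authors' deposited table (log2 1.58, SE 0.13, adjusted p = 7.25e-33 by DESeq2). The tubulins Tubb2a (1.13), Tubb5 (1.11) and Tuba1b (1.08) followed, each with an SE of 0.13 to 0.14 in the authors' deposited table. The genes of this list that fell encode dendritic or submembrane proteins with long mRNAs, or a glial filament. They were Sptbn1 (-1.31), Vim (-1.19), Sptan1 (-0.99), Map2 (-0.98) and Ank2 (-0.73), per the authors' deposited table. Of 38 measured motor and dynactin genes, 13 were higher (34.2%) and 2 lower (5.3%), with a median of 0.19, against 0.28 in PL-NAc and 0.23 in PL-BLA. The dynein light chain Dynll1 was at 0.93 (SE 0.13), the dynactin subunit Dctn3 at 0.80 (SE 0.13) and the kinesin Kif3a at 0.66 (SE 0.14), per the authors' deposited table. Kif5a, the neuronal kinesin heavy chain, went the other way and was 2.85-fold lower in the authors' deposited table (log2 -1.51, SE 0.13, adjusted p = 2.79e-27 by DESeq2). Its paralog Kif5c was at -0.13 (SE 0.13) and did not pass the test in the authors' deposited table.

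Adhesion genes of the cadherin and neurexin groups were higher more often than lower. Of 27 measured cadherins and protocadherins 9 were higher (33.3%) and 3 lower (11.1%), and of 30 measured neurexins, neuroligins and their partners 11 were higher (36.7%) and 2 lower (6.7%). Cdh13, a cadherin anchored to the membrane by lipid, was 4.76-fold higher in the authors' deposited table (log2 2.25, SE 0.14, adjusted p = 1.36e-52 by DESeq2). Pcdh8 was at 1.20 (SE 0.18) and Cdh8 at 1.16 (SE 0.19), while Cdh12 was at -1.10 (SE 0.24), per the authors' deposited table. C1ql3, a secreted synapse organizer of excitatory neurons, was at 1.02 (SE 0.18), and Nxph1, a neurexin ligand of interneurons, at -1.05 (SE 0.19), per the authors' deposited table. Axon guidance genes gave 7 higher (12.1%) and 7 lower (12.1%) of 58 measured, close to the share of all genes. Those higher included the semaphorin receptor Nrp1 at 1.02 (SE 0.22), the Slit receptor Robo1 at 1.10 (SE 0.29), Efnb3 at 0.77 (SE 0.15) and Epha5 at 0.75 (SE 0.16), per the authors' deposited table. Plxnb1 at -1.53 (SE 0.30), Plxnb3 at -1.66 (SE 0.39), Ntn4 at -1.72 (SE 0.37) and Unc5d at -1.53 (SE 0.34) were lower in the authors' deposited table.

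Synaptic genes included members in each direction. Vesicle and release genes gave 11 higher (23.9%) and 9 lower (19.6%) of 46 measured, against 13.7% and 11.8% of all genes. Postsynaptic scaffold genes gave 4 (14.8%) and 6 (22.2%) of 27. Glutamate receptor genes gave 5 and 5 of 35 (14.3% each), near the shares of all genes. The vesicle proteins Syp (0.69, SE 0.12) and Sv2b (0.74, SE 0.14) were higher in the authors' deposited table. The active zone genes Rims3 (-1.34, SE 0.16) and Pclo (-1.26, SE 0.20), the SNARE gene Vamp1 (-1.29, SE 0.15) and complexin Cplx2 (-0.91, SE 0.18) were lower in the authors' deposited table. Snap25, whose mean count of 126390 was the highest among vesicle genes, was at 0.20 (SE 0.12) and did not pass the test in the authors' deposited table. Among receptors, the kainate subunit Grik2 was at 1.03 (SE 0.21) and the AMPA subunit Gria2 at 0.50 (SE 0.13), while Grin2c, an NMDA subunit known from astrocytes in cortex, was at -2.17 (SE 0.28), per the authors' deposited table. Gabra5, an extrasynaptic GABA receptor subunit, was at 0.90 (SE 0.17) and the glycine receptor subunit Glra2 at 1.45 (SE 0.28), the 2 genes higher among 16 measured GABA and glycine receptor genes in the authors' deposited table. Activity-induced genes gave 2 higher and 2 lower of 29 measured (6.9% each), below the shares of all genes. Bdnf was at 0.65 (SE 0.18) and Arc at -0.91 (SE 0.14), per the authors' deposited table. By the test of the difference described later, 7 of the 29 were lower in PL-VTA than in PL-NAc and none higher. The same counts held against PL-BLA, where 2.83% of all genes were lower, against 1.89% for PL-NAc. The list medians were -0.02, 0.34 and 0.30 in the order PL-VTA, PL-NAc, PL-BLA.

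**Figure D3:**
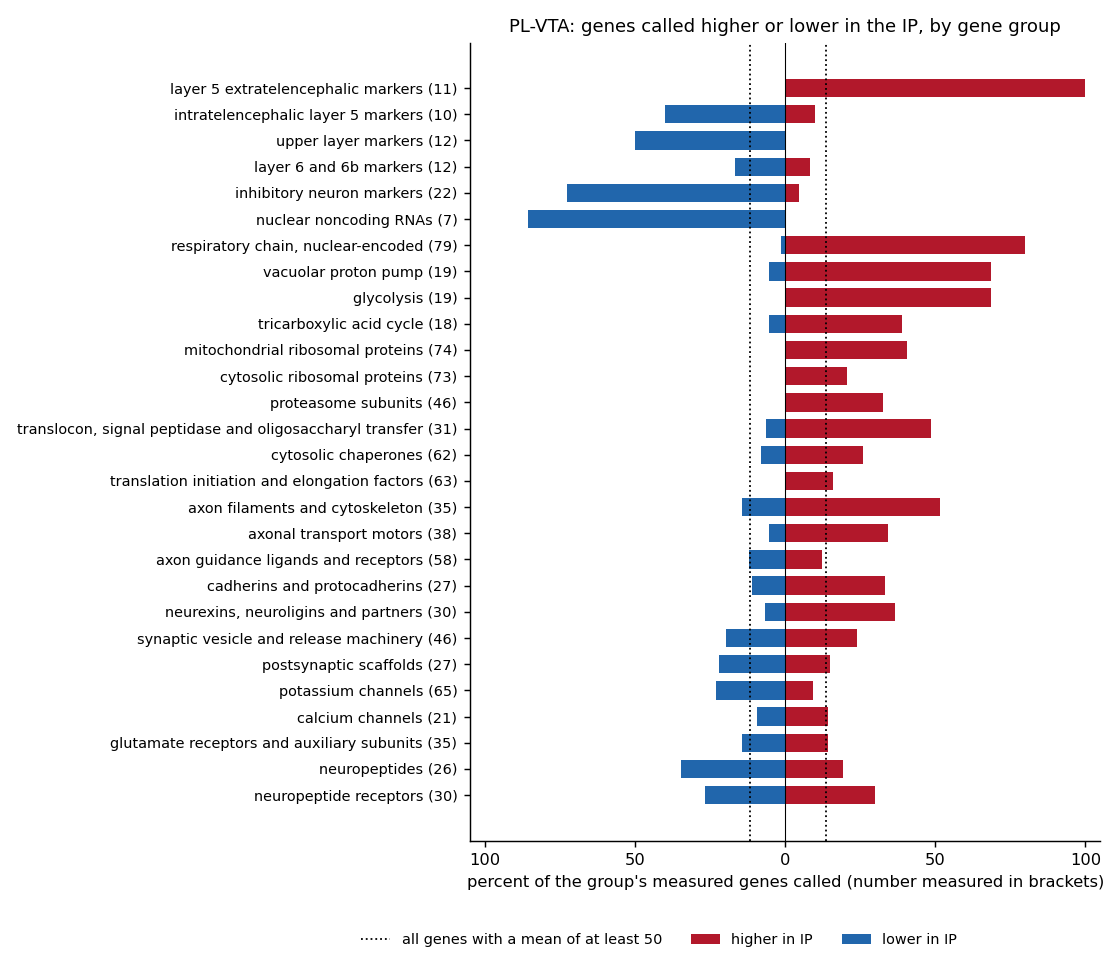
Bars give, for 28 gene groups, the percent of measured genes called higher (red, to the right) or lower (blue, to the left) in the PL-VTA IP, with the number measured in brackets and dotted lines at the shares of all genes, 13.7% and 11.8%. Extratelencephalic markers and nuclear-encoded respiratory chain genes are the highest, with 11 of 11 and 79.7% higher, and nuclear noncoding RNAs reach 85.7% lower.

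Genes of energy supply rose by small amounts and as broad groups. Of 79 measured nuclear genes of the respiratory chain, 63 were higher (79.7%) and 1 lower, with a median log2 fold change of 0.55. The median SE was 0.139 for this list and 0.131 for glycolysis genes, against 0.219 for all genes, so smaller changes could pass the test. Ndufa4 was at 1.08 (SE 0.13), the complex III subunit Uqcr11 at 0.94 (SE 0.13), Cox7a2 at 0.88 (SE 0.13) and the ATP synthase subunit Atp5g3 at 0.87 (SE 0.13), per the authors' deposited table. The 1 lower was Cox6a2, an isoform typical of muscle and of interneurons in brain, at -2.83 (SE 0.35), per the authors' deposited table. Glycolysis genes gave 13 higher and none lower of 19 measured (68.4%), among them the neuronal enolase Eno2 at 0.80 (SE 0.12) and the pyruvate kinase Pkm at 0.70 (SE 0.12), per the authors' deposited table. Of 18 measured genes of the tricarboxylic acid cycle 7 were higher and 1 lower, the malate dehydrogenase Mdh2 at 0.60 (SE 0.12) and the succinate ligase subunit Suclg2 at -1.64 (SE 0.36), per the authors' deposited table. The vacuolar proton pump, which fills synaptic vesicles and lysosomes with acid, gave 13 higher and 1 lower of 19, with Atp6v0c at 0.93 (SE 0.14) and Atp6v0e at -1.09 (SE 0.22), per the authors' deposited table. Genes of very high mean count among those called higher included Ndrg4 (0.42), Aldoa (0.59), Calm2 (0.48), Atp5b (0.57), Vamp2 (0.39), Aplp1 (0.60), Rtn1 (0.73) and Gm38393 (0.62), as log2 fold changes in the authors' deposited table. A mean count grows with transcript length as well as with the number of transcripts.

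Among genes of protein synthesis and turnover, some groups had more genes higher than the 13.7% of all genes, while most of their members did not pass the test. Mitochondrial ribosomal proteins gave 30 higher of 74 measured (40.5%) and none lower, cytosolic ribosomal proteins 15 of 73 (20.5%) and none lower, and proteasome subunits 15 of 46 (32.6%) and none lower. After centring on the median of all genes the cytosolic ribosomal and proteasome counts were 9 and 9. Mrpl41 was at 1.04 (SE 0.16), Rpl41 at 1.09 (SE 0.16) and the proteasome lid subunit Psmd3 at 0.64 (SE 0.13), per the authors' deposited table. Genes that bring proteins into the endoplasmic reticulum gave 15 higher (48.4%) and 2 lower of 31 measured, with the signal peptidase subunit Spcs1 at 0.92 (SE 0.15) and Srp14 at 0.80 (SE 0.14), per the authors' deposited table. Cytosolic chaperones gave 16 higher and 5 lower of 62, with Hsp90aa1 at 0.94 (SE 0.13) and Dnajc21 at -1.23 (SE 0.20), per the authors' deposited table. Translation factors gave 10 of 63 higher (15.9%), near the share of all genes. Of 35 tRNA synthetase genes 4 were higher (11.4%), also near it, led by Eprs at 1.47 (SE 0.17) and the mitochondrial leucine enzyme Lars2 at 1.36 (SE 0.16), per the authors' deposited table. The stress factors Atf4 (-0.74, SE 0.15) and Ddit3 (-1.11, SE 0.22) were lower in the authors' deposited table. Rpl10a-ps1 (chr1:64993951-64994604), a processed pseudogene of the ribosomal protein gene Rpl10a, was 6.17-fold higher in the authors' deposited table (log2 2.63, SE 0.15, adjusted p = 7.27e-69 by DESeq2). Rpl10a itself was at -0.07 (SE 0.39) with a mean count of only 76.6 in the authors' deposited table. Reads of such near-identical copies cannot be told apart here, nor from any reads of the GFP-L10a transgene.

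Several of the steepest gains were in genes of other kinds. Dlk1, an imprinted transmembrane protein of the Notch ligand family, was 6.47-fold higher in the authors' deposited table (log2 2.69, SE 0.34). It belongs to the imprinted cluster on chromosome 12 that also holds Meg3, which was 13.4-fold lower in the authors' deposited table (log2 -3.75, SE 0.17). Imprinted genes as a list gave 6 higher and 5 lower of 26 measured, with Ndn, necdin, at 1.30 (SE 0.13) and Igf2 at -2.05 (SE 0.35), per the authors' deposited table. Chst8, a sulfotransferase acting on protein sugars, was 5.51-fold higher (log2 2.46, SE 0.20), and Atg7, the enzyme that starts the autophagy conjugation cascade, 5.48-fold higher (log2 2.45, SE 0.17), per the authors' deposited table. No other of 26 measured ubiquitin and autophagy genes came near Atg7, with Uchl1 next at 0.85 (SE 0.12), per the authors' deposited table. Krt2 (a keratin, 2.60), Cda (cytidine deaminase, 2.20), the adaptor gene Sh2d3c (2.18) and the chromatin reader L3mbtl4 (2.12) completed the 15 highest log2 fold changes in the authors' deposited table. Mcm5, a subunit of the helicase that unwinds DNA for replication, was 4.70-fold higher in the authors' deposited table (log2 2.23, SE 0.25). Other replication helicase and loading genes were looked up after that value was seen, and 7 of 15 measured were higher and none lower. They included Mcm2 (1.78, SE 0.31), the loading factor Cdt1 (1.64, SE 0.34), Mcm6 (1.38, SE 0.28) and Mcm3 (1.22), while Mcm4 (0.46) and Mcm7 (0.22) did not pass the test in the authors' deposited table. None of the 15 differed between PL-VTA and PL-NAc or PL-BLA by the test of the difference described later, so they were not seen to differ by projection.

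The deepest losses were mostly of mitochondrial RNA and of noncoding RNA known to stay in the nucleus. The mitochondrial ribosomal RNA mt-Rnr2 was at 2.06% of Input (log2 -5.60, SE 0.24) and mt-Rnr1 at 3.36% (log2 -4.90, SE 0.27), per the authors' deposited table. All 7 measured protein genes of the mitochondrial chromosome were lower, with a median of -3.22, led by mt-Cytb at -4.21 (SE 0.36), per the authors' deposited table. This fall was used to read the direction of the table and is not a finding, but it lies opposite to the 63 nuclear respiratory chain genes that were higher. Of 7 measured nuclear noncoding RNAs 6 were lower, with a median of -2.84. Malat1, a nuclear speckle RNA, was at 7.52% of Input (log2 -3.73, SE 0.40), Neat1 at -3.11 and the neuronal RNA Miat at -2.48 in the authors' deposited table. Pantr1 was at -0.05 (SE 0.18) and did not pass the test in the authors' deposited table. Snhg11 was at 17.4% of Input (log2 -2.52, SE 0.17), per the authors' deposited table, whereas small nucleolar RNA host genes as a list gave 2 higher and 1 lower of 10 measured. The uncharacterized 9530059O14Rik was at -3.37 (SE 0.32), per the authors' deposited table.

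Noncoding transcripts that host miRNAs were among these losses. Mir124a-1hg (chr14:64587331-64593961), the host of a neuronal miRNA, was at 6.54% of Input in the authors' deposited table (log2 -3.93, SE 0.37, adjusted p = 1.78e-24 by DESeq2), the lowest value outside the mitochondrial chromosome. Of 13 other noncoding genes with a RefSeq hairpin inside their span on the same strand, 5 were lower, 1 higher and 7 not called, with a median of -0.40. The 430 protein-coding hosts, in comparison, gave 39 higher and 51 lower with a median of 0.04. The mature miRNAs of the hosts described next are shown from RefSeq (GRCm38.p6), 5′ to 3′, with the seed (bases 2 to 8) in capitals, since these are the products such hosts give rise to.
miR-29b-3p: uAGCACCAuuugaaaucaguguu
miR-29c-3p: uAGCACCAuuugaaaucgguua
miR-9-5p: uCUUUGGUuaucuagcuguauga
miR-100-5p: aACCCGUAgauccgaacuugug
miR-125b-5p: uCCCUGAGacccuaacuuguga
miR-370-3p: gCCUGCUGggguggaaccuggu
miR-22-3p: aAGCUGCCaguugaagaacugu
The first 2 share a seed and a host, A330023F24Rik (chr1:194976375-195037904), which was at 19.7% of Input (log2 -2.34, SE 0.40), per the authors' deposited table. Mature miR-9-5p is the same from 3 loci, and their hosts did not move alike. Gm3764, with Mir9-1, was at -2.28 (SE 0.32), per the authors' deposited table, while C130071C03Rik, with Mir9-2, was at -0.31 (SE 0.22) and Mir9-3hg at -0.38 (SE 0.17) without passing the test. The host of miR-100 and miR-125b, 2610203C20Rik, was at -1.88 (SE 0.36), and Rian, host of miR-370 within the Dlk1 and Meg3 cluster, at -2.84 (SE 0.29), per the authors' deposited table. Mir22hg was the 1 host called higher, at 0.52 (SE 0.18, adjusted p = 0.0193 by DESeq2), per the authors' deposited table. These values are of host RNA in libraries that do not mark strand, and the mature miRNAs were not measured.

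Transcripts of glia, vessels and blood were depleted, as the reading of the direction requires for glia. All 18 measured astrocyte and all 18 measured oligodendrocyte markers were lower, with medians of -1.44 and -2.37, as were 7 of 8 precursor and 15 of 17 microglial markers. Mbp, a myelin gene, was still at 18.6% of Input (log2 -2.43, SE 0.12) and Gfap, the astrocyte filament gene, was at -2.58 (SE 0.21), per the authors' deposited table. Of 11 measured endothelial and mural markers, out of 20 listed, 6 were lower and none higher, and 5 of 5 blood and choroid plexus genes were lower, with Hbb-bs at -3.31 (SE 0.30) and Ttr at -2.89 (SE 0.27), per the authors' deposited table. Among the deepest single losses were the selenium carrier Selenop (-3.24, SE 0.18) and the microglial adaptor Tyrobp (-3.25, SE 0.38), per the authors' deposited table. Redox and iron genes divided in this setting into 5 higher and 9 lower of 27 measured. Prdx6 (-1.62, SE 0.13), Gstm1 (-1.89, SE 0.17), Mt2 (-2.35, SE 0.22) and the ferritin heavy chain Fth1 (-1.36, SE 0.12), all known to be strong in glia, were lower in the authors' deposited table. Prdx2 (0.77, SE 0.13), Prdx3 (0.60, SE 0.15), Prdx4 (0.94, SE 0.23) and the thioredoxin Txn1 (0.91, SE 0.15) were higher in the authors' deposited table. Fth1 had the highest mean count of the genes called lower, and Aldoc, an astrocyte aldolase, was at -1.11 (SE 0.14), per the authors' deposited table. The part that the mix of cells has in these gains and losses was not tested. In such bulk RNA, fewer cells of a type and less RNA per cell cannot be told apart.

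Interneuron markers were lower in most but not all cases. Of 22 measured inhibitory neuron markers 16 were lower (72.7%) and 1 was higher, with a median of -1.28. Npy was at 11.9% of Input (log2 -3.07, SE 0.17), the calcium buffer Pvalb at -2.65 (SE 0.21) and the lineage factor Lhx6 at -2.10 in the authors' deposited table. Gad1, which makes GABA, was at -0.63, whereas Gad2 was at -0.20 with an SE of 0.42 and Slc32a1, the vesicular GABA transporter, at -0.43, neither passing the test in the authors' deposited table. Lamp5, which is also found in pyramidal neurons, was at 0.77 (SE 0.15), per the authors' deposited table.

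Markers of other pyramidal classes did not follow those of the extratelencephalic class. Of 10 measured intratelencephalic layer 5 markers 1 was higher and 4 lower (median -0.63), and of 12 upper layer markers none was higher and 6 lower (median -0.49). Tcap and Tnnc1 were at -2.57 (SE 0.31) and -2.48 (SE 0.33), and the layer 4 and 5 factor Rorb at -1.51 (SE 0.21), per the authors' deposited table. The upper layer factors Cux2 (-1.61, SE 0.26) and Cux1 (-1.19, SE 0.18) were lower, per the authors' deposited table. Etv1, which is found in several layer 5 types, was at 0.66 (SE 0.18), per the authors' deposited table. Layer 6 markers gave 1 higher and 2 lower of 12, with Ntsr1 at 1.32 (SE 0.39) and Cplx3, of the deepest layer, at -0.99 (SE 0.24), per the authors' deposited table. General excitatory markers gave 3 higher and 3 lower of 14, and Slc17a7, the vesicular glutamate transporter of all cortical pyramidal neurons, was at 0.16 (SE 0.12) without passing the test in the authors' deposited table.

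The enrichment in PL-VTA was next set against that in PL-NAc and PL-BLA, which used other libraries. The difference of the log2 fold changes was tested with a two-sided Wald z and Benjamini-Hochberg adjustment over the genes at a mean of 50 or more in both tables. Against PL-NAc, enrichment in PL-VTA was higher for 310 of 11981 genes (2.59%) and lower for 227 (1.89%). Against PL-BLA it was higher for 337 of 12097 (2.79%) and lower for 342 (2.83%). The 2 differences share the PL-VTA libraries. The test takes the shrunken fold changes as they stand. Shrinkage is stronger where spread is wide, and its part in these differences was not tested. Of 11937 genes tested in both, 189 were higher than in each of the other projections (1.58%) and 184 lower (1.54%). Of the 189, 97 were also called higher in the PL-VTA IP, 18 lower and 74 neither, and of the 184, 8 were called higher, 94 lower and 82 neither. For 87 of the 189 and 120 of the 184 the fold change in PL-VTA had the opposite sign to those in PL-NAc and PL-BLA.

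Of the 10 genes with the strongest evidence of higher enrichment, Pou3f1, Bcl11b and Fezf2 were extratelencephalic markers. The measured markers of that class were higher than in PL-NAc for 9 of 10 genes and than in PL-BLA for 10 of 10, against 2.59% and 2.79% of all genes. That list was chosen with earlier results of these data known. Pou3f1 was at 1.89 in PL-VTA but at -0.55 (SE 0.11) in PL-NAc and -1.65 (SE 0.13) in PL-BLA in the authors' deposited tables. Bcl11b was at -0.28 (SE 0.09) in PL-NAc and -1.09 (SE 0.09) in PL-BLA, while Fezf2 was above 0 there too, at 1.57 (SE 0.08) and 0.84 (SE 0.10) in the authors' deposited tables. Outside that class, Igfbp4, which binds insulin-like growth factors, was at 1.77 (SE 0.15) in PL-VTA, -0.35 (SE 0.21) in PL-NAc and -0.73 (SE 0.09) in PL-BLA in the authors' deposited tables. Kcng2 stood at 1.86, 0.01 (SE 0.17) and -0.46 (SE 0.18), and Tcerg1l, a transcription elongation regulator homolog, at 1.81 (SE 0.21), -0.01 (SE 0.14) and -0.91 (SE 0.17), in the same order in the authors' deposited tables. The G protein subunit Gng7, known from striatal neurons, was at 0.83 (SE 0.14), -0.69 (SE 0.08) and -1.61 (SE 0.07) in the authors' deposited tables. Tox2, an HMG-box factor, was at 1.41 (SE 0.17), and the protease inhibitor Serpine2 at 0.79 (SE 0.16), in PL-VTA, and both were below 0 in the other projections in the authors' deposited tables. Ap1s2, an adaptor of vesicle sorting, was not called in PL-VTA at 0.27 (SE 0.18), but was at -1.07 (SE 0.10) and -1.55 (SE 0.10) in the others in the authors' deposited tables.

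Lower enrichment than in both other projections was found for several genes known from corticocortical neurons. Tnnc1, a troponin, was at -2.48 in PL-VTA but at 1.84 (SE 0.11) in PL-NAc and 1.60 (SE 0.11) in PL-BLA in the authors' deposited tables. Slc30a3, which loads zinc into vesicles of corticocortical terminals, was at 23.8% of Input (log2 -2.07, SE 0.16) in PL-VTA, and at 0.12 (SE 0.08) and 0.50 (SE 0.07) in the others in the authors' deposited tables. The cyclin-dependent kinase inhibitor Cdkn1c was at -1.26 (SE 0.35), 2.24 (SE 0.13) and 2.28 (SE 0.14) in the order PL-VTA, PL-NAc, PL-BLA in the authors' deposited tables. Neurod6, a factor of cortical pyramidal neurons, was at -0.82 (SE 0.15), 1.0 (SE 0.07) and 1.34 (SE 0.08), and Nrn1, neuritin, at -1.29 (SE 0.14), 0.52 (SE 0.07) and 0.81 (SE 0.09) in the authors' deposited tables. The abundant calcium sensor Ncald and the secreted glycoprotein gene Olfm1 were at -0.70 (SE 0.14) and -1.0 (SE 0.12) in PL-VTA, and above 0 in the others in the authors' deposited tables. Sccpdh (-0.47), the small GTPase gene Rasl10a (-1.40) and the Bcl2-family gene Bok (-1.59) completed the 10, with values of 0.63 to 1.77 in the other projections in the authors' deposited tables.

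**Figure D4:**
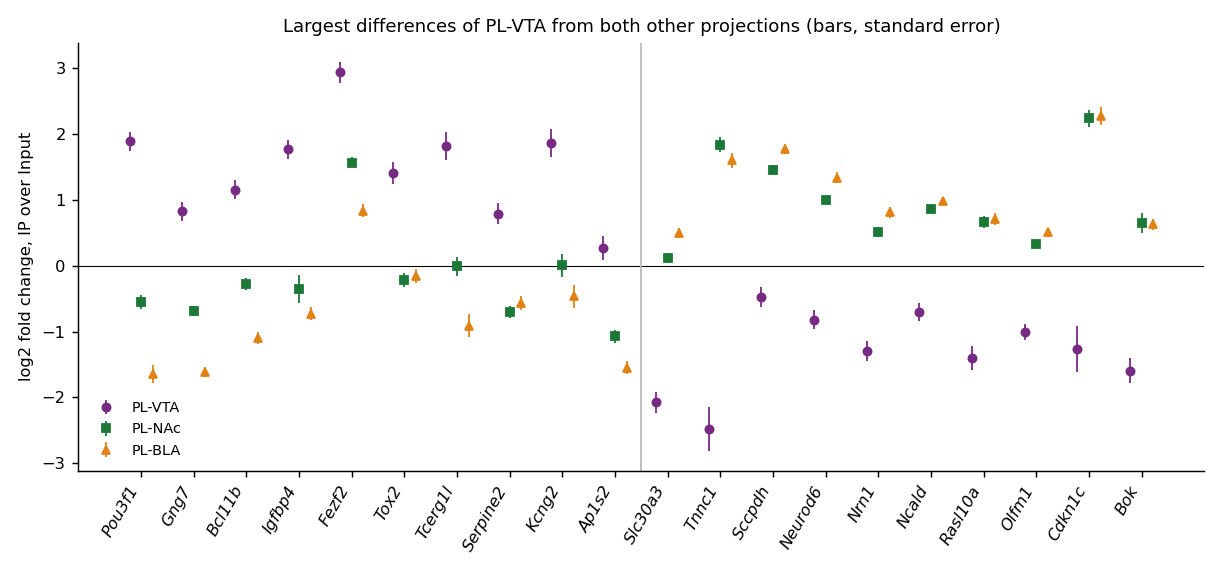
Log2 fold changes of IP over Input are plotted in PL-VTA (circles), PL-NAc (squares) and PL-BLA (triangles), with standard errors, for the 10 genes with the strongest evidence of higher enrichment in PL-VTA (left) and of lower enrichment (right). On the left PL-VTA lies above the others for every gene, and on the right below, with a difference from PL-NAc of -4.32 for Tnnc1.

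Most of the broad gains were not seen to differ by projection. None of the 79 respiratory chain genes encoded in the nucleus differed from PL-NAc, and 5 differed from PL-BLA, with list medians of 0.55, 0.52 and 0.34 in the order PL-VTA, PL-NAc, PL-BLA. No proteasome, cytosolic ribosomal or mitochondrial ribosomal gene differed from either, although a p that misses the threshold does not show that the values were alike. Axon cytoskeleton genes did differ in part, 5 higher and 4 lower against PL-NAc and also 5 and 4 against PL-BLA, of 35 tested. The neurofilament subunit Nefm was at 0.76 (SE 0.14), -0.21 (SE 0.07) and -0.03 (SE 0.09), and Nefl at 0.56 (SE 0.13), -0.10 (SE 0.06) and 0.05 (SE 0.07), in that order in the authors' deposited tables, and these were looked up after the counts were seen. Sst and Npy had lower values in PL-VTA than elsewhere. Sst was at -1.69, against 0.26 (SE 0.09), above Input, in PL-NAc and -0.53 (SE 0.09) in PL-BLA. Npy was at -3.07 against -0.85 (SE 0.08) and -1.33 (SE 0.10) in the authors' deposited tables. Over the whole inhibitory list, 6 of 22 were higher and 2 lower in PL-VTA than in PL-NAc, and 2 and 3 against PL-BLA. The deposited values of some untagged RNA lay less far below 0 in PL-VTA. Astrocyte markers were higher than in PL-NAc for 6 of 18 genes, oligodendrocyte markers for 5 of 18 and nuclear noncoding RNAs for 4 of 7, with 7 of 7 mitochondrial genes higher than in PL-NAc and 6 of 7 than in PL-BLA. Against PL-BLA 4 of 7 nuclear noncoding RNAs were higher, and none of the astrocyte or oligodendrocyte markers. The mitochondrial genes had medians of -3.22, -6.30 and -5.11 in the order PL-VTA, PL-NAc, PL-BLA. Their median SE in PL-VTA was 0.398, near the highest SE of 0.451, and shrinkage toward 0 is stronger for such wide spread. The part that shrinkage has in these shallower values, and the part that they have in the differences between projections, were not tested.

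Most striatal markers did not pass the test in the PL-VTA IP, and their spread was wide. Of 25 markers of striatal medium spiny neurons measured, 2 were higher and 4 lower, and 18 had an SE at or above the 95th percentile of genes with a like mean count. Their median SE was 0.42 in PL-VTA, against 0.13 in PL-NAc and 0.11 in PL-BLA. Their median log2 fold change was 0.26 in PL-VTA, -0.86 in PL-NAc and -1.27 in PL-BLA. By the test of the difference, enrichment in PL-VTA was higher than in PL-NAc for 7 of 21 and than in PL-BLA for 14 of 24, with none lower, against 2.59% and 2.79% of all genes. Ppp1r1b, which encodes the dopamine target DARPP-32, had a mean count of 12400 and stood at 0.26 (SE 0.45), per the authors' deposited table. The dopamine receptor Drd1 was at 0.56 (SE 0.45) and the peptide gene Tac1 at 0.51 (SE 0.45), neither passing the test in the authors' deposited table. Along with Carhsp1 (-0.57) and Necab2 (0.34), these last 2 were among the 5 genes of widest SE at a mean of 1000 or more in the authors' deposited table. Of the 60 widest among 6248 genes at a mean of at least 500, 13 were on the striatal list and 6 on the mitochondrial chromosome. Adora2a (-2.24, SE 0.29) and Drd2 (-0.99, SE 0.35), of the indirect pathway, were lower, and Pdyn (1.42, SE 0.39) and Gng7 (0.83, SE 0.14) higher in the authors' deposited table. Such spread between libraries of a group can come from 1 library, which these tables cannot show, and its part in the calls was not tested.

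**Figure D5:**
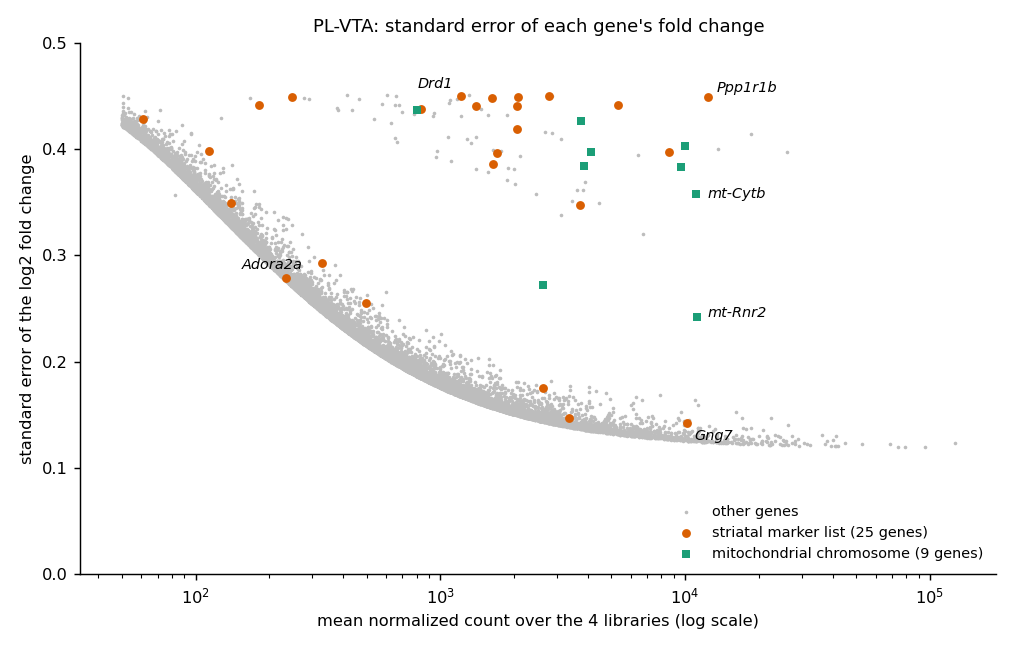
The standard error of each gene's log2 fold change in PL-VTA is plotted against its mean normalized count on a log axis, with the 25 striatal markers (orange) and 9 mitochondrial genes (green) marked. Most genes follow a falling band, while Ppp1r1b and Drd1 stand near the highest SE of 0.451.

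The same genes were also grouped by family, gene type and exon length in place of the lists, which gives no separate evidence. Among 142 families of at least 10 measured genes that share a symbol stem, the largest shares higher were in the complex I families Ndufa (12 of 13) and Ndufb (8 of 10), the chaperones Hspa (7 of 11) and the mitochondrial import genes Timm (7 of 13). Of 11 Sox transcription factors, many of them glial, 7 were lower and none higher. No syntaxin (Stx) or oxysterol-binding (Osbpl) gene passed the test among 13 and 10 measured. By annotated type (GENCODE M21, same build), 13.8% of 11538 protein-coding genes were higher and 12.2% lower, 58 of 395 processed pseudogenes were higher and 6 lower, and 5 of 83 lincRNAs were higher and 12 lower. Pseudogene counts rest on reads that near-identical copies share. Exon length here is the summed length of all annotated exons of a gene, with overlaps merged, and not that of a single mRNA. Genes of shorter exon length were higher more often. In 4 bins of exon length with equal numbers among 11531 nuclear protein-coding genes, 22.4% of the shortest were higher, then 14.2%, 10.3% and 8.4%, and the median log2 fold changes were 0.21, 0.07, 0.03 and -0.06. The median exon length was 3562 bases for genes called higher, 4755 for those called lower and 4877 for those not called. The respiratory chain, ribosomal and proteasome genes above are mostly short, and the part that length has in their counts was not tested.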

How the data were processed

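The values used were the submitters' DESeq2 comparison table for PL-VTA, with those for PL-NAc and PL-BLA for differences only. The submitters' processing notes name STAR 2.3 and featureCounts before DESeq2, and the builds mm10 and GRCm38. Other versions, annotation, strand setting and model were not stated in them. Per the labels' protocols, SMARTer Ultra Low and Nextera XT kits were used, which do not mark strand. The mean signal is the authors' mean of normalized counts, per the file headers. Per the same headers, each log2 fold change comes with its standard error and Wald score from the authors. The p-value and adjusted p-value are deposited by the authors, and recomputing them from the score gave the same values to within 2.7e-15.

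No per-library values were used, so no blocked fit could be made. Genes with a mean of at least 50 were kept, and all of them carried an adjusted p-value. Gene types, positions and exon lengths came from GENCODE M21 for 12229 genes, and 85 were not matched. The code of the Wald z for differences was run on simulated data with unshrunken normal errors of the deposited SE. That run does not test the z on shrunken fold changes or on SEs estimated from few libraries. Python 3.11.15, pandas 2.3.3 and scipy 1.17.1 were used.

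The genes described, the 61 gene lists and the tests were chosen with earlier results of these data known. Named genes were the 15 highest and 15 lowest fold changes called, the 10 most abundant called in each direction, up to 4 genes called per list and direction by smallest p with up to 2 not called of highest mean, 5 genes on each side of the level limit, the 10 strongest differences in each direction, and the 5 widest standard errors at a mean of at least 1000. Other members named in the text were chosen after their values were seen. Alternatives were other level limits, thresholds, adjustments, centring and a t reference. A few genes that this rule names are not reported here.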

Additional observations from a re-analysis of the deposited data

Results flagged for a closer look

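The enrichment of 20 genes in PL-VTA differed from that in PL-NAc and in PL-BLA by the Wald z test of the difference itself, and they are the 10 strongest in each direction. Values are differences of log2 fold changes, PL-VTA minus PL-NAc first and PL-VTA minus PL-BLA second, from the authors' deposited tables. Higher enrichment was found for Pou3f1 (2.44 and 3.53), Gng7 (1.52 and 2.44), Bcl11b (1.44 and 2.25), Igfbp4 (2.12 and 2.49) and Fezf2 (1.37 and 2.10). It was also found for Tox2 (1.63 and 1.57), Tcerg1l (1.82 and 2.72), Serpine2 (1.5 and 1.36), Kcng2 (1.85 and 2.32) and Ap1s2 (1.34 and 1.82). Lower enrichment was found for Slc30a3 (-2.19 and -2.57), Tnnc1 (-4.32 and -4.09), Sccpdh (-1.93 and -2.25), Neurod6 (-1.82 and -2.16) and Nrn1 (-1.81 and -2.11). The same held for Ncald (-1.56 and -1.68), Rasl10a (-2.07 and -2.11), Olfm1 (-1.33 and -1.51), Cdkn1c (-3.50 and -3.54) and Bok (-2.24 and -2.22). The 2 differences of a gene share the PL-VTA libraries and are not independent.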

How the results depend on the processing

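No paired analysis was possible because the tables hold comparisons and not libraries, and for the same reason no library could be left out. Counts are given as genes higher and lower. At an adjusted p under 0.01 there were 1093 and 1077. At a mean of at least 200, where fewer genes were tested, there were 1610 and 954, of which 396 were at least 2-fold lower. With the t reference on 2 degrees of freedom there were 0 and 0, and 0 and 0 at 2-fold (492 and 609 at an unadjusted p under 0.05), and none of the 347 named genes that were called passed. The cause is the reference itself, since the scores are the same. All other planned settings kept these 4 counts and the 4 counts of differences within 1.5 times of the reported ones: a mean of at least 10, mitochondrial genes and genes without a symbol left out, centring, and adjustment over the described genes only. Centring left 340 of the 347 named calls, and lost Ankrd11, Chd3, Col22a1, Dlgap4, Gpc1, Hspa5 and Ifi27. It moved 7 of 122 list counts by over 1.5 times, a mean of at least 200 moved 20, and a mean of at least 10 moved 1. No named gene changed sign. Depth limits the low genes, whose shrunken changes need to be larger to pass.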

Other observations

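Intracellular signalling genes included members in each direction, and are set here against 13.7% higher and 11.8% lower among all genes. Of 38 measured genes of cyclic nucleotide signalling 7 were higher (18.4%) and 4 lower (10.5%), near those shares, among them the calmodulin-dependent phosphodiesterase Pde1a at 0.88 (SE 0.14) and Pde4a at 0.73 (SE 0.14), against the calcium-stimulated cyclase Adcy1 at -0.49 (SE 0.14), per the authors' deposited table. Of 26 G protein subunit genes 7 were higher (26.9%) and 6 lower (23.1%). Gnb5 was at 0.66 (SE 0.13) and Gnaz at 0.61 (SE 0.14), while Gna12 was at -1.68 (SE 0.16) and Gna13 at -1.26 (SE 0.21), per the authors' deposited table. The regulator of G protein signalling Rgs19 was at 0.97 (SE 0.17) and Rgs12 at -1.15 (SE 0.20), and 1 of 17 genes of that family was higher and 3 lower in the authors' deposited table. Of 18 neurotrophin and growth factor genes 4 were higher (22.2%) and 2 lower (11.1%). The sorting receptors Sorcs1 (1.06, SE 0.21) and Sorcs2 (0.96, SE 0.22) and the neurotrophin-3 receptor Ntrk3 (0.84, SE 0.21) were higher, and Fgfr2 (-1.74, SE 0.27) was lower in the authors' deposited table.

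Matrix, immune and histone genes were lower more often than higher. Of 23 measured matrix and perineuronal net genes 3 were higher (13.0%) and 9 lower (39.1%), against 13.7% and 11.8% of all genes. The protease inhibitor Timp2 was at 0.88 (SE 0.13) but Timp3 at -1.61 (SE 0.24) and Timp4 at -2.04 (SE 0.27), per the authors' deposited table. Of 19 interferon response and antigen presentation genes 1 was higher (5.26%) and 6 lower (31.6%), led by Ifitm3 at -2.19 (SE 0.35), per the authors' deposited table. Of 7 measured histone genes, out of 64 in the table, 3 were lower (42.9%), among them Hist1h2bc at -2.54 (SE 0.26), per the authors' deposited table. Sterol synthesis genes mostly did not pass the test, with none higher and 2 lower of 23 (8.7%), near the lower share of all genes. These 2 were the regulators Srebf1 at -1.93 (SE 0.25) and Insig1 at -0.92 (SE 0.25), per the authors' deposited table. Astrocyte and oligodendrocyte markers, with medians of -1.44 and -2.37, moved the same way as these losses, and their part was not tested. Splicing factors of the SR and hnRNP families gave 5 higher (16.1%) and none lower of 31, the share higher being near that of all genes. Hnrnpab was at 0.53 (SE 0.14), per the authors' deposited table.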
